A study of Mus musculus with 12 samples.

Results

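The 57 genes described here are Wnt ligands, receptors, inhibitors, intracellular mediators and targets, chosen by symbol from the 2 deposited tables of gene expression in mouse brain endothelial cells (BECs). All 57 were listed in the table of the OGD-R environment (29775 genes) and 56 in that of NX/NG (29965 genes), where Ndp had no row. By role the list held 11 ligands, 10 Frizzled receptors, 7 co-receptors, 6 secreted inhibitors, 8 genes of the R-spondin axis, 5 cytoplasmic mediators, 4 nuclear factors and 6 feedback targets. The BECs were primary cultures from the brain microvasculature of wild-type mice (Cort+/+) or mice lacking the neuropeptide cortistatin throughout the body (Cort-/-), both on a C57BL/6J background, and each biological replicate was a pool from 3 mice of a genotype. Cultures were kept for 24 h in normoxia and normoglycemia (NX/NG, 21% O2), or for 4 h at 1% O2 without glucose or serum and then 20 h of reoxygenation (OGD-R), a model of ischemia in a dish. A column was used for 3 Cort+/+ and 2 Cort-/- replicates in each environment, 10 of the 12 samples listed. Of the Cort-/- samples, the third NX/NG replicate and the second OGD-R replicate were not analysed here.

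The libraries held between 12386048 and 12390428 reads on genes as recovered from the deposited values, so that depth on this scale was nearly equal. What made these totals so close was not tested, and they need not be the numbers of reads sequenced. The deleted gene gave 1 or 2 reads in each Cort+/+ NX/NG library, 0 or 1 in each Cort+/+ OGD-R library and 0 in all 4 Cort-/- libraries, and at this level it says little about the labels. A pair of OGD-R libraries stood apart by their ribosomal RNA, with 0.0775% of reads (Cort+/+ replicate 1) and 0.0951% (Cort-/- replicate 3), where the other 8 libraries had 7.64% to 15.8%. The 6 endothelial markers summed to between 794 and 1235 RPKM (reads on a gene for its length and the library's size) in every library. Smooth muscle markers summed to between 995 and 1777 RPKM and fibroblast markers to between 65.4 and 299.8 RPKM. These sums rested on few markers of each list. Acta2 was at 630 to 1080 and Tagln at 358 to 684 RPKM, but Cnn1 at 6.08 to 16.4 and Myh11 at 0.506 to 2.11 RPKM. Among fibroblast markers, Col1a1 was at 46.5 to 222 RPKM, but Dcn at 0.539 to 1.93 and Lum at 0 to 0.149 RPKM. The 6 epithelial markers summed to 57.3 RPKM in Cort+/+ NX/NG replicate 2 and to 41.1 RPKM in Cort-/- OGD-R replicate 1, where the other 8 libraries lay between 2.81 and 15.7 RPKM. In such bulk cultures, fewer cells of a type and less RNA per cell cannot be told apart.

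Wnt ligands bind a Frizzled receptor together with the co-receptor Lrp5 or Lrp6, after which Dvl proteins disable the Axin and Apc complex that destroys beta-catenin, and beta-catenin enters the nucleus to act with Tcf/Lef factors. In brain endothelium this pathway drives the formation of vessels and of the blood-brain barrier, where Reck and Adgra2 (Gpr124) help Frizzled receptors to respond to Wnt7 ligands, and Fzd4 with Tspan12 responds to norrin (Ndp). Axin2, Lef1, Nkd1, Notum and Apcdd1 are transcribed in response to the signal and feed back on it, while Dkk1, Sfrp and Wif1 proteins block it outside the cell, and R-spondins with Lgr receptors raise it by removing Znrf3 and Rnf43 from the membrane.

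Promoters are shown for 4 Frizzled genes whose levels separated the genotypes under NX/NG, 3 of them lower in Cort-/- BECs (Fzd1, Fzd5 and Fzd7) and 1 higher (Fzd4). The windows come from RefSeq on GRCm38.p6, each 300 bases around the start annotated there, and lie at chr5:4758167-4758466 (minus strand, Fzd1), chr1:64737701-64738000 (minus strand, Fzd5), chr1:59481897-59482196 (plus strand, Fzd7) and chr7:89404116-89404415 (plus strand, Fzd4). In GENCODE vM21 the Fzd1 gene starts at 4758035 and the Fzd7 gene at 59482424. The windows of Fzd1 and Fzd7 lie wholly upstream of those starts. All windows are written 5′ to 3′ with every GC box in capitals, that is GGGCGGG or its reverse complement CCCGCCC on the other strand.
Fzd1: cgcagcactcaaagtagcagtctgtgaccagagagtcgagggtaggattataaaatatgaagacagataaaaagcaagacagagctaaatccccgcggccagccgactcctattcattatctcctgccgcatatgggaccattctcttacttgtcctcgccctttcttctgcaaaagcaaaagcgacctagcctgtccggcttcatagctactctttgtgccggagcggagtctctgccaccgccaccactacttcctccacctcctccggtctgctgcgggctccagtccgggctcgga
Fzd5: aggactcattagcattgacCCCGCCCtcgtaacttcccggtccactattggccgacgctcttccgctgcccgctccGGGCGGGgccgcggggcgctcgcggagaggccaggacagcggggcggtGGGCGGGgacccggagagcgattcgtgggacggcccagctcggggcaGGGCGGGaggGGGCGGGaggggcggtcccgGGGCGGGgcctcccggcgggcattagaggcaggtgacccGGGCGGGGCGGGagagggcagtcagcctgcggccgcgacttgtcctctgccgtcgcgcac
Fzd7: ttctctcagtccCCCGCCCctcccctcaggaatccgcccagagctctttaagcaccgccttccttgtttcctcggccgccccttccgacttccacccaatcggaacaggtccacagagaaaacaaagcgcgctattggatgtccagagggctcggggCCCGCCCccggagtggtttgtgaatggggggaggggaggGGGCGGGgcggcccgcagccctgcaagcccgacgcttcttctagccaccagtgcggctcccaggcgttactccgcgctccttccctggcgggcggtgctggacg
Fzd4: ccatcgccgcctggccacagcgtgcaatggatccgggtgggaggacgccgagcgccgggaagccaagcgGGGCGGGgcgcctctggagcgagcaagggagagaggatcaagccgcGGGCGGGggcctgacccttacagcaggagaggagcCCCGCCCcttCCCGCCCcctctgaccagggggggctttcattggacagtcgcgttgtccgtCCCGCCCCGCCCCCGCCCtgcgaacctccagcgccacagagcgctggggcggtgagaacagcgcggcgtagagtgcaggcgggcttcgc
Matches that overlap were counted apart, which gave 0 GC boxes in the Fzd1 window, 8 in Fzd5, 3 in Fzd7 and 7 in Fzd4. A GC box lay in 25.6% of all 32851 windows of the table and in a window of 23 of the 38 members that had one. G and C made up 54% of the Fzd1 window, 75.7% of Fzd5, 66.7% of Fzd7 and 72.7% of Fzd4, so that both the lower and the higher receptors included GC-rich starts. The Tcf/Lef letters CTTTGAT, or ATCAAAG on the other strand, were in none of these 4 windows, in 3.73% of all windows, and in a window of 3 of the 38 members (Tnfrsf19, Wnt11 and Wnt5b). For both motifs the share of all windows was counted per window, but a member was counted once if any of its windows held the motif. The shares are therefore not like for like.

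The levels of the members spread over several orders of magnitude. By mean over the libraries, 8 members lay at or above 10 RPKM, 20 between 1 and 10, 19 between 0.1 and 1, and 10 below 0.1. The upper 8 were Adgra2, Fzd6, Fzd7, Fzd4, Lrp5, Dvl1, Dkk3 and Apc. Surface receptors and intracellular mediators were thus the well expressed roles, whereas most ligands and all but one feedback target lay below 1 RPKM.

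**Figure D1:**
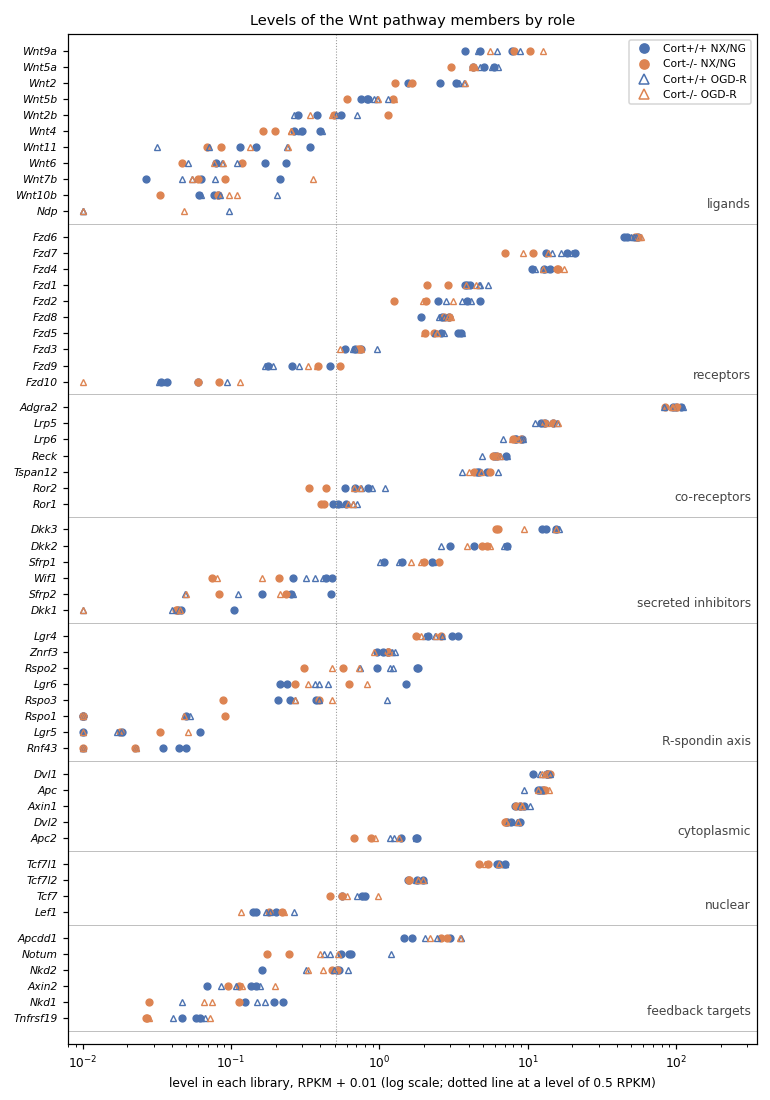
Level of each of the 57 members in every library, in RPKM with 0.01 added so that zeros can be drawn on the log axis, ordered by mean level within each role (blue, Cort+/+; orange, Cort-/-; filled circles, NX/NG; open triangles, OGD-R). Adgra2 and Fzd6 stood highest and Rnf43, Lgr5 and Rspo1 lowest, and 8 members averaged at least 10 RPKM.

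Among the receptors for Wnt7 and norrin, Adgra2 was the most expressed member of the whole list. Its level was 107, 99.9 and 95.3 RPKM in the Cort+/+ and 102 and 84.1 RPKM in the Cort-/- NX/NG libraries, and 111, 83.2 and 94.9 against 93.3 and 94.9 RPKM under OGD-R, with Cort+/+ libraries always given first and Cort-/- libraries after "against". The genotypes overlapped in both environments, and Adgra2 alone gave 73.8% of the summed co-receptor level. Its partner Reck stood at 6.06, 7.10 and 5.88 against 6.18 and 5.81 RPKM under NX/NG and at 7.18, 4.88 and 6.50 against 6.14 and 6.50 RPKM under OGD-R. The log2 genotype difference of Reck was -0.08 ± 0.10 (SE) under NX/NG, smaller than its error.

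Tspan12, the norrin co-receptor, was at 4.51, 4.67 and 5.26 RPKM in Cort+/+ and 4.35 and 5.54 RPKM in Cort-/- BECs under NX/NG, and at 3.61, 4.68 and 6.24 against 4.81 and 4.03 RPKM after OGD-R. Lrp5 was at 12.2, 14.7 and 13.1 against 14.7 and 12.9 RPKM under NX/NG, and at 15.6, 11.1 and 12.5 against 13.5 and 15.9 RPKM after OGD-R. Its paralog Lrp6 was at 8.14, 9.15 and 8.30 against 9.06 and 7.89 RPKM under NX/NG, and at 9.25, 6.81 and 8.98 against 8.52 and 7.79 RPKM after OGD-R. Neither genotype nor environment separated the libraries for these 3 co-receptors, and their log2 genotype differences under NX/NG were 0.03 ± 0.13, 0.05 ± 0.10 and -0.01 ± 0.09 (SE), respectively.

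Wnt7b and Ndp, the ligands in this list for the Wnt7 and norrin receptors, were close to absent from the libraries that listed them. Wnt7b was at 0.0167, 0.202 and 0.0531 RPKM in Cort+/+ and 0.0496 and 0.0803 RPKM in Cort-/- libraries under NX/NG, and at 0.0446, 0.0368 and 0.0683 against 0.348 and 0.0449 RPKM after OGD-R, which is between 1 and 20 reads per library. Its 2 highest values were those of the 2 libraries highest in epithelial markers, whose part in them was not tested. Ndp, listed only for OGD-R, was at 0, 0 and 0.0863 RPKM in Cort+/+ and 0 and 0.0378 RPKM in Cort-/- libraries, or at most 2 reads. Ndp was thus within the floor of 3 reads in every library, and Wnt7b lay below the mean of 0.5 RPKM required for a test. The ligand with the highest level was Wnt9a, at 4.78, 3.75 and 7.81 RPKM in Cort+/+ and 8.03 and 10.3 RPKM in Cort-/- libraries under NX/NG, and at 4.62, 6.17 and 8.85 against 12.7 and 5.57 RPKM after OGD-R. Both Cort-/- libraries lay above the Cort+/+ ones under NX/NG, by little over the nearest, but not after OGD-R (log2 difference under NX/NG 0.80 ± 0.32, FDR = 0.406). Wnt5a, a ligand mostly known for beta-catenin independent signalling, and Wnt2 followed, and the other ligands averaged below 1 RPKM.

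Fzd6 was the leading Frizzled receptor and gave 55.74% of the receptor sum. Its level was 44.3, 55.6 and 46.7 RPKM in Cort+/+ and 52.4 and 54.8 RPKM in Cort-/- NX/NG libraries, and 53.6, 49.8 and 51.8 against 58.0 and 56.4 RPKM after OGD-R. Under OGD-R both Cort-/- libraries were above the Cort+/+ ones by a small step (log2 difference 0.15 ± 0.09, SE). Fzd7 and Fzd4 came next with 15.41% and 14.54% of the receptor sum, and their means over the libraries, 14.5 and 13.7 RPKM, were closer to each other than their spread. Fzd3, Fzd9 and Fzd10 averaged below 1 RPKM.

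The feedback targets gave little signal in any group. Axin2, the usual reporter of beta-catenin activity, was at 0.0593, 0.138 and 0.126 RPKM in Cort+/+ and 0.103 and 0.0857 RPKM in Cort-/- libraries under NX/NG, and at 0.145, 0.0981 and 0.0760 against 0.108 and 0.186 RPKM after OGD-R. These values rest on 4 to 14 reads per library and the groups overlapped. Lef1, a nuclear partner of beta-catenin and itself a target, was at 0.130, 0.191 and 0.138 against 0.212 and 0.170 RPKM under NX/NG, and at 0.257, 0.174 and 0.162 against 0.107 and 0.217 RPKM after OGD-R. Tcf7 was at 0.783, 0.756 and 0.546 against 0.456 and 0.547 RPKM under NX/NG, and at 0.699, 0.776 and 0.776 against 0.593 and 0.971 RPKM after OGD-R. Both transcripts overlapped between the genotypes in each environment.

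Apcdd1, a membrane inhibitor of Wnt signalling induced in brain vessels, was the exception among the targets, at 1.65, 1.46 and 2.99 against 2.85 and 2.58 RPKM under NX/NG and at 2.01, 2.43 and 3.53 against 3.49 and 2.17 RPKM after OGD-R. The genotypes overlapped in both environments (log2 difference under NX/NG 0.47 ± 0.31, FDR = 0.577). Nkd1 was at 0.215, 0.184 and 0.114 against 0.0178 and 0.104 RPKM under NX/NG, and at 0.160, 0.138 and 0.0367 against 0.0561 and 0.0643 RPKM after OGD-R, on 1 to 12 reads. Notum, a secreted enzyme that inactivates Wnt ligands, was at 0.542, 0.632 and 0.612 against 0.235 and 0.163 RPKM under NX/NG, and at 1.18, 0.411 and 0.452 against 0.389 and 0.517 RPKM after OGD-R. Both Cort-/- NX/NG libraries lay below the 3 Cort+/+ ones for Notum, whereas Nkd1 had 1 read in a Cort-/- library, within the floor of 3, and was not compared. Neither reached the mean of 0.5 RPKM that the NX/NG test required.

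Of the ubiquitin ligases that remove Frizzled receptors, Znrf3 was at 1.13, 1.05 and 0.956 against 1.14 and 1.13 RPKM under NX/NG, and at 1.25, 1.07 and 1.21 against 1.14 and 0.910 RPKM after OGD-R. Rnf43 was at 0.0249, 0.0348 and 0.0397 against 0.0123 and 0 RPKM under NX/NG, and at 0, 0 and 0.0128 against 0.0130 and 0 RPKM after OGD-R, or at most 3 reads. Znrf3 was thus the better detected ligase, and Rnf43 lay within the floor. Lgr4, the R-spondin receptor with the highest level, was at 3.40, 3.09 and 2.11 against 2.60 and 1.77 RPKM under NX/NG and at 2.35, 2.63 and 2.02 against 1.88 and 2.39 RPKM after OGD-R.

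The first comparison asked how the lack of cortistatin altered these genes in unchallenged cells. Under NX/NG, several Frizzled receptors, the secreted protein Dkk3, the ligand enhancer Rspo2, the scaffold Apc2 and the repressor Tcf7l1 were lower in Cort-/- than in Cort+/+ BECs, and Fzd4 was higher. Of the 35 members that passed the filter (a mean of at least 0.5 RPKM), 8 were lower and 1 higher at an unadjusted p under 0.05 by limma on log2(RPKM + 0.1). Over all 15695 genes tested the share was 7.51% lower and 5.03% higher. No member and no gene (0%) was called at a false discovery rate (FDR) of 0.05 by limma, while limma-voom on the recovered reads called 1 member, Dkk3, beside 0.344% of all genes. Both Cort-/- libraries lay below all Cort+/+ libraries for 10 members, against 16.5% of all genes, and above them for 4, against 15.6%. The median log2 difference was -0.076 over the members tested and 0.0066 over all genes tested. The 8 Frizzled receptors tested supplied 4 of the lower members and the 1 higher.

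**Figure D2:**
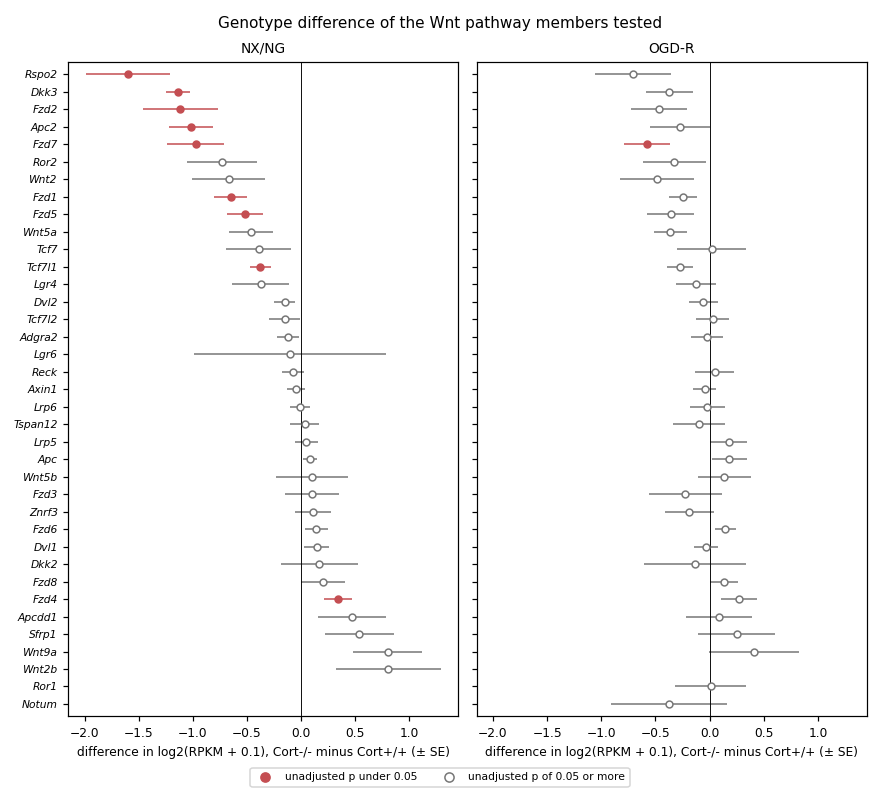
Difference in log2(RPKM + 0.1) between Cort-/- and Cort+/+ BECs for the members tested under NX/NG (left) and OGD-R (right), with the SE as bars and filled red points for an unadjusted p under 0.05. Under NX/NG 9 members passed that level, 8 of them lower and Fzd4 higher, and under OGD-R only Fzd7 did; a row with no point was not tested in that environment.

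Fzd7, one of the 3 leading Frizzled receptors, was at 20.8, 18.5 and 13.3 RPKM in the 3 Cort+/+ and at 10.9 and 7.01 RPKM in the 2 Cort-/- libraries. Both Cort-/- libraries lay below every Cort+/+ library, the second clearly so (log2 difference -0.97 ± 0.26, FDR = 0.304). Fzd2, its close relative, was at 4.79, 3.91 and 2.46 against 2.06 and 1.25 RPKM. The third Cort+/+ library came near the first Cort-/- library, and the error of the difference was large (-1.11 ± 0.34, FDR = 0.336).

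Fzd1 was at 3.89, 3.75 and 4.07 RPKM in Cort+/+ and 2.87 and 2.08 RPKM in Cort-/- libraries. Its Cort+/+ libraries were nearly equal and both Cort-/- libraries lay below them (log2 difference -0.65 ± 0.15, FDR = 0.278). Fzd5, a receptor for canonical ligands, was at 3.35, 3.55 and 2.60 against 2.32 and 2.00 RPKM, again with no overlap (-0.52 ± 0.17, FDR = 0.343). Fzd4, the receptor for norrin, was at 10.6, 12.9 and 14.1 RPKM in Cort+/+ and 16.0 and 15.6 RPKM in Cort-/- libraries. It was the one member above the Cort+/+ range at an unadjusted p under 0.05, by a small step (0.34 ± 0.13, FDR = 0.389). The remaining 3 receptors tested, Fzd3, Fzd6 and Fzd8, overlapped between genotypes.

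**Figure D3:**
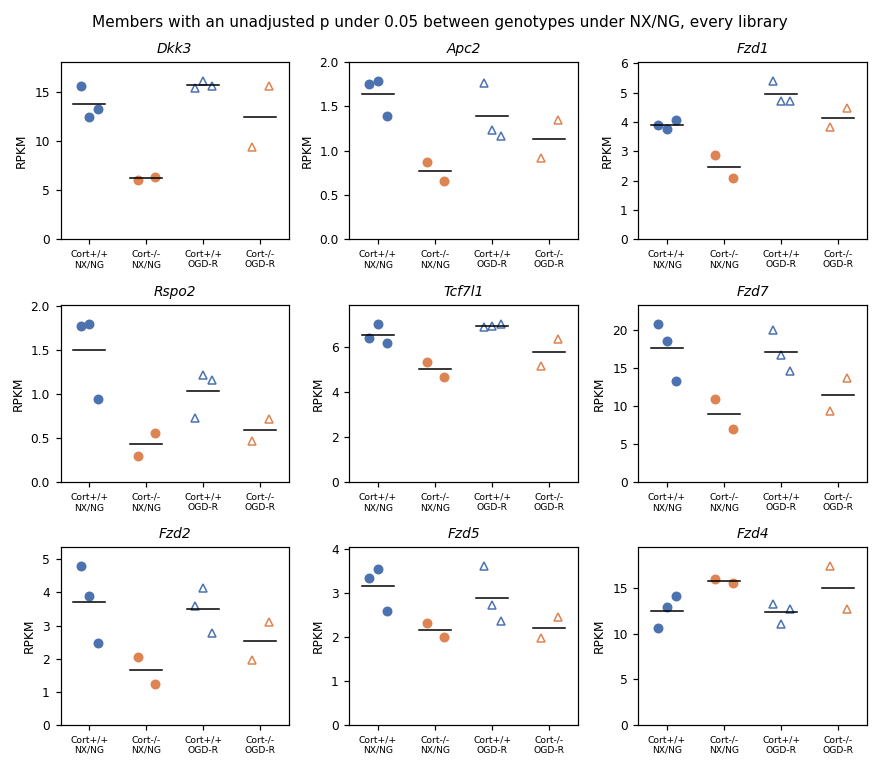
Level in RPKM, on linear axes that start at 0, of the 9 members with an unadjusted p under 0.05 between genotypes under NX/NG, with each library as a point and the group mean as a bar (blue, Cort+/+; orange, Cort-/-; circles, NX/NG; triangles, OGD-R; 3 Cort+/+ and 2 Cort-/- libraries per environment). Under NX/NG the Cort-/- libraries lie below all Cort+/+ libraries in 8 panels and above them for Fzd4, whereas after OGD-R the groups overlap for several genes, Dkk3 among them.

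Dkk3, a secreted glycoprotein of the Dickkopf family that does not block Lrp5 and Lrp6 as Dkk1 does, had the smallest p of the members. It was at 15.6, 12.5 and 13.3 RPKM in Cort+/+ and at 6.05 and 6.32 RPKM in Cort-/- libraries. The Cort-/- level was below that of the lowest Cort+/+ library by more than the spread within either genotype (log2 difference -1.14 ± 0.11, FDR = 0.111 by limma, FDR = 0.0165 by limma-voom). The other inhibitors tested, Dkk2 and Sfrp1, overlapped between genotypes, and Dkk1, Sfrp2 and Wif1 were too low for the test.

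Rspo2, which raises Wnt signalling through Lgr receptors, was at 1.77, 1.80 and 0.950 RPKM in Cort+/+ and 0.301 and 0.554 RPKM in Cort-/- libraries. All 5 values were low, but the genotypes did not overlap (-1.60 ± 0.39, FDR = 0.290). Apc2, a relative of Apc that binds beta-catenin and microtubules, was at 1.76, 1.79 and 1.39 against 0.868 and 0.663 RPKM (-1.01 ± 0.20, FDR = 0.240). Its widely expressed relative Apc was at 11.7, 12.0 and 12.7 against 13.1 and 12.6 RPKM and overlapped between genotypes. Tcf7l1, the Tcf factor best known as a repressor and the most expressed of the nuclear members, was at 6.42, 7.06 and 6.19 against 5.34 and 4.69 RPKM (-0.38 ± 0.10, FDR = 0.293). Both Cort-/- libraries were below the Cort+/+ range for Apc2 and for Tcf7l1.

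Wnt2, a ligand of the beta-catenin branch, was at 3.29, 2.53 and 1.54 RPKM in Cort+/+ and 1.26 and 1.64 RPKM in Cort-/- libraries, where the third Cort+/+ library lay within the Cort-/- range. No ligand reached an unadjusted p under 0.05 by limma (Wnt2, -0.67 ± 0.33, FDR = 0.468). By limma-voom Wnt9a, which was higher (FDR = 0.194), and Wnt5a, which was lower (FDR = 0.264), had such a p. Over all 15695 genes, 1104 were higher and 1255 lower at that level by limma-voom. Dvl1, a cytoplasmic transducer, was the most expressed cytoplasmic member at 13.5, 10.9 and 13.4 against 14.1 and 13.6 RPKM. Dvl1 also lies on chromosome 4 at 6.72 Mb from Cort on GRCm38 (GENCODE vM21), the nearest member to the deleted gene, followed by Wnt4 at 11.8 Mb. Its genotype difference was 0.14 ± 0.11, FDR = 0.628.

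Markers of other cells differed between the same libraries. The 6 fibroblast markers summed to 175 to 242 RPKM in Cort+/+ and to 65.4 to 98.2 RPKM in Cort-/- NX/NG libraries, and 3 of the 6 (Col1a1, Col1a2 and Pdpn) were below the Cort+/+ range in both Cort-/- libraries, while Pdgfra was above it. Pdpn alone was at 18.1 to 23 RPKM against 2.6 to 4.59 RPKM. The 5 pericyte markers summed to 5.8 to 7.95 RPKM in Cort+/+ and to 2.42 to 2.57 RPKM in Cort-/- libraries, with Cspg4 and Rgs5 separating the genotypes and Kcnj8 and Abcc9 at or near 0 in all. The part of fibroblasts and pericytes in the differences of the members was not tested. The sums of endothelial markers, 794 to 1041 RPKM in Cort+/+ and 1027 to 1159 RPKM in Cort-/- libraries, overlapped. Without Cort-/- NX/NG replicate 2, the number of members at an unadjusted p under 0.05 was 4 in place of 9, and the share of all genes 6.69% in place of 12.5%, in a fit that holds 1 Cort-/- library and takes its spread from Cort+/+. Without Cort+/+ replicate 2, the library highest in epithelial markers, 8 members and 9.4% of all genes had such a p. Without Cort+/+ replicate 1 it was 7 members and 7.52% of all genes, and without Cort+/+ replicate 3 it was 13 members and 17%.

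After OGD-R, the same question was asked of challenged cells, and fewer members separated the genotypes. Of 35 members tested, 1 was lower (Fzd7) and 0 higher at an unadjusted p under 0.05, against 2.19% and 1.4% of the 15785 genes tested. Neither limma (0% of all genes) nor limma-voom (0.00634%) called a member at an FDR of 0.05. Both Cort-/- libraries lay below all Cort+/+ libraries for 6 members, against 8.39% of all genes, and above them for 2 (Fzd6 and Fzd8), against 7.93%. All 9 members at an unadjusted p under 0.05 under NX/NG had a difference of the same sign after OGD-R. Of all 1951 genes at that level under NX/NG, 87.9% had, and whether the cultures of both environments came from the same pools of mice is not given in the sources used here.

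Fzd7 was at 19.9, 16.7 and 14.5 RPKM in Cort+/+ and 9.31 and 13.7 RPKM in Cort-/- libraries after OGD-R, with no overlap (log2 difference -0.58 ± 0.21, FDR = 0.999). Fzd1 was at 5.40, 4.72 and 4.70 against 3.82 and 4.47 RPKM (-0.25 ± 0.13, FDR = 0.999). Both Cort-/- libraries were again below the Cort+/+ range for these receptors, with smaller steps than under NX/NG. Fzd2 was at 3.60, 4.13 and 2.79 against 1.95 and 3.12 RPKM, Fzd5 at 3.61, 2.72 and 2.37 against 1.98 and 2.45 RPKM, and Fzd4 at 13.2, 11.1 and 12.7 against 17.4 and 12.7 RPKM. These 3 receptors overlapped between genotypes, with differences of -0.47 ± 0.26, -0.36 ± 0.22 and 0.27 ± 0.17 (SE).

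Dkk3 was at 15.3, 16.1 and 15.6 RPKM in Cort+/+ BECs after OGD-R, and at 9.37 RPKM in replicate 1 and 15.6 RPKM in replicate 3 of the Cort-/- BECs. The higher value came from the Cort-/- library low in ribosomal RNA and lay within the Cort+/+ range (-0.37 ± 0.22, FDR = 0.999). Without that library the difference of Dkk3 was -0.74, and 7 members had an unadjusted p under 0.05 in place of 1, beside 6.42% of all genes in place of 3.59%. Without both libraries low in ribosomal RNA, an alternative chosen after the data were seen, there were 5 members, beside 6.33% of all genes. Either fit holds 1 Cort-/- library, which is assumed to vary like the Cort+/+ ones, and that library, replicate 1, was the one high in epithelial markers. Without replicate 1 in its place, 0 members and 3.29% of all genes had such a p.

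Tcf7l1 was at 6.90, 6.98 and 7.04 against 5.17 and 6.39 RPKM, Rspo2 at 0.726, 1.22 and 1.16 against 0.467 and 0.717 RPKM, and Apc2 at 1.76, 1.24 and 1.17 against 0.922 and 1.34 RPKM after OGD-R. Tcf7l1 and Rspo2 did not overlap between genotypes and Apc2 did (differences of -0.27 ± 0.12, -0.71 ± 0.35 and -0.27 ± 0.28, SE). Wnt2 was at 3.68, 3.43 and 3.30 RPKM in Cort+/+ and 1.59 and 3.74 RPKM in Cort-/- libraries, with 1 Cort-/- library above and 1 below the Cort+/+ range. Fibroblast markers summed to 196 to 299.8 RPKM in Cort+/+ and to 165 to 210.3 RPKM in Cort-/- libraries after OGD-R, and pericyte markers to 6.6 to 7.45 and 5.35 to 5.82 RPKM. The fibroblast ranges overlapped, although Pdpn stayed at 20.5 to 26.8 RPKM against 3.66 to 3.95 RPKM. Epithelial markers summed to 2.81 to 7.74 RPKM in Cort+/+ and to 9.11 to 41.1 RPKM in Cort-/- libraries. Of the 6, 3 (Cdh1, Krt7 and Krt18) were above the Cort+/+ range in both Cort-/- libraries. In Cort-/- replicate 3, Krt18 was at 8.67 RPKM, but Cdh1 and Krt7 were only at 0.0641 and 0.0208 RPKM. In that library Epcam was at 0 RPKM, and Krt8, at 0.0749 RPKM, lay below the Cort+/+ range. The part of these cells in the values of the members after OGD-R was not tested.

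The response of each genotype to OGD-R was compared on reads of the 27321 genes in both tables, scaled together. In Cort+/+ BECs, Fzd1 was the one member of 36 tested with an unadjusted p under 0.05, and it was higher after OGD-R, against 4.25% higher and 2.38% lower over 15749 genes. Fzd1 was 3.89, 3.75 and 4.07 RPKM under NX/NG and 5.40, 4.72 and 4.70 RPKM after OGD-R as deposited, with no overlap, and its log2 difference on the joint scale was 0.27 ± 0.09, FDR = 0.725. All libraries after OGD-R lay above all under NX/NG for 2 members (Fzd1 and Wnt5b), against 7.8% of all genes, and below them for 0, against 4.79%. No member and no gene (0%) was called at an FDR of 0.05 by limma or by limma-voom.

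In Cort-/- BECs, Dkk3 and Fzd1 were higher after OGD-R at an unadjusted p under 0.05, 2 of 36 members tested, and 0 were lower. Over the 15682 genes tested 2.28% were higher and 1.62% lower. Dkk3 was at 6.05 and 6.32 RPKM under NX/NG and at 9.37 and 15.6 RPKM after OGD-R (log2 difference 0.89 ± 0.26, FDR = 0.946). Fzd1 was at 2.87 and 2.08 RPKM under NX/NG and 3.82 and 4.47 RPKM after OGD-R (0.67 ± 0.20, FDR = 0.946). The groups did not overlap for 7 members that were higher, against 18% of all genes, and for 4 that were lower, against 15.9%, with 2 libraries on each side. Again no member and no gene (0%) was called at an FDR of 0.05 by either tool, and without Cort-/- NX/NG replicate 2, where 1 library stands for NX/NG and its spread comes from the OGD-R ones, 0 members and 2.44% of all genes had an unadjusted p under 0.05.

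**Figure D4:**
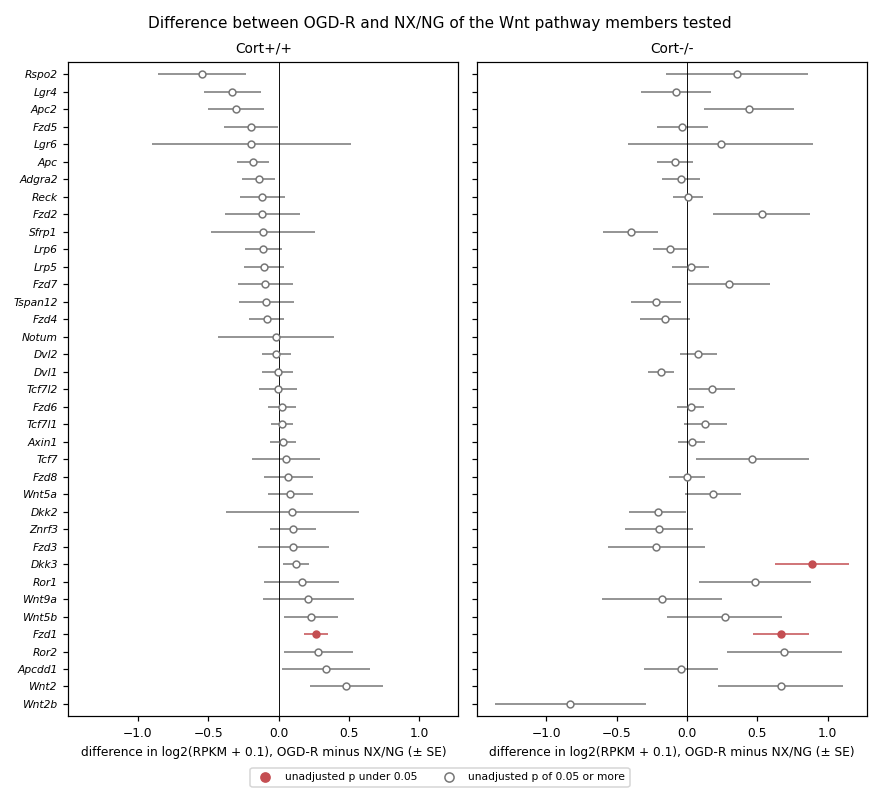
Difference in log2(RPKM + 0.1) between OGD-R and NX/NG for the members tested in Cort+/+ (left) and Cort-/- (right) BECs, with the SE as bars and filled red points for an unadjusted p under 0.05. Only Fzd1 passed that level in Cort+/+ cells, and Dkk3 and Fzd1 did in Cort-/- cells; a row with no point was not tested in that genotype.

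Whether the response differed between genotypes was tested by the interaction over all 10 libraries. Of 37 members tested, 1 was higher and 0 lower at an unadjusted p under 0.05, against 1.08% and 0.802% of the 15712 genes tested. That member was Dkk3, whose difference between OGD-R and NX/NG was larger in Cort-/- than in Cort+/+ BECs by 0.76 ± 0.26, FDR = 1.00 on the log2 scale. Its p did not hold against the number of genes tested, and its high Cort-/- value after OGD-R came from the library low in ribosomal RNA. Over 19 alternatives the interaction of Dkk3 lay between 0.39 and 1.13 on the log2 scale, with the same sign in all. Without Cort+/+ OGD-R replicate 1, the other library low in ribosomal RNA, 2 members and 3.58% of all genes had an unadjusted p under 0.05. No member and no gene (0%) was called at an FDR of 0.05 by limma or limma-voom, and without Cort+/+ NX/NG replicate 3 the number of members at an unadjusted p under 0.05 was 3, beside 2.2% of all genes.

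Other genes of the pathway, 76 from a fixed list of further ligands, secretion factors, modulators, receptors, mediators, planar polarity genes, targets and barrier genes, were taken from the same fits. Under NX/NG 48 of them were tested, and 9 were lower and 4 higher in Cort-/- BECs at an unadjusted p under 0.05, beside the 7.51% lower and 5.03% higher of all 15695 genes, with no call at an FDR of 0.05 by either tool. The receptor tyrosine kinases for Wnt ligands, Ryk and Ptk7, were both lower. Ptk7 was at 12.3, 9.78 and 7.70 RPKM in Cort+/+ and 7.10 and 4.76 RPKM in Cort-/- libraries (log2 difference -0.73 ± 0.25, FDR = 0.360). Dact3, which binds Dvl proteins and dampens the pathway, was at 4.15, 4.28 and 3.68 against 2.52 and 1.40 RPKM (-1.06 ± 0.25, FDR = 0.282), and at 4.36, 4.73 and 3.81 against 2.57 and 3.48 RPKM after OGD-R (-0.50 ± 0.18, FDR = 0.999). Dact3 was thus below the Cort+/+ range in all Cort-/- libraries of both environments.

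Among the list's higher genes, Ccnd1, the cell cycle gene cyclin D1, was at 141, 173 and 212 RPKM in Cort+/+ and 249.5 and 231 RPKM in Cort-/- libraries under NX/NG (0.47 ± 0.18, FDR = 0.383). After OGD-R it was at 132, 139 and 144 against 214 and 196 RPKM (0.57 ± 0.11, FDR = 0.771), so that no library of one genotype reached those of the other. Sox17, an endothelial transcription factor, was at 13.2, 13.4 and 17.7 against 18.5 and 23.8 RPKM under NX/NG (0.52 ± 0.18, FDR = 0.355). The secreted inhibitor Frzb was at 15.7, 15.9 and 19.5 against 23.2 and 23.7 RPKM (0.47 ± 0.11, FDR = 0.279). Ctnnbip1, which keeps beta-catenin from Tcf factors, was at 11.7, 13.2 and 14.6 against 16.2 and 16.6 RPKM (0.32 ± 0.10, FDR = 0.343), and it lies 0.391 Mb from Cort on chromosome 4. The effect of that position on its level cannot be told apart from that of the deletion.

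Of the 8 barrier genes tested, 0 had an unadjusted p under 0.05 between genotypes in either environment. In Cort+/+ BECs, 1 of them, the transcription factor gene Foxf2, was higher after OGD-R, at 9.18, 8.79 and 8.73 RPKM under NX/NG and 10.4, 11.4 and 11.6 RPKM after OGD-R (0.25 ± 0.07, FDR = 0.725). Over the whole list, 2 of 50 genes tested had an unadjusted p under 0.05 between genotypes after OGD-R (Dact3 lower and Ccnd1 higher), or 4% beside 3.59% of all genes. The list gave 3 of 50 between environments in Cort+/+ (6% beside 6.63%), 0 of 47 in Cort-/- (0% beside 3.9%) and 1 of 49 in the interaction (2.04% beside 1.88%), so that these shares lay near or below those of all genes.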

How the data were processed

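RNA-seq libraries of primary BECs were sequenced by the authors, who quantified genes with their own pipeline. The labels and the study's methods both name a stranded mRNA kit but differ in which kit, in RNA input and in read length and number, so none of these is given here, and their bearing on ribosomal RNA was not tested. edgeR is named in the submitters' processing notes, and the aligner, genome build and annotation are not given in the sources used here. RPKM values were deposited by the authors in 1 table per environment, each scaled on its own. The tables also hold the authors' fold changes and p-values, which were not used, and 10 further per-sample columns of expression categories, likewise not used. RPKM times gene length came within 0.05 of a whole number of reads for at least 99.9958% of values above 0 in each library, so that reads were recovered (12386048 to 12390428 per library on genes). Depth sets the floor: 3 reads or fewer were not compared.

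Each comparison was fitted with limma 3.58.1 (R 4.3.3; empirical Bayes with a trend, two-sided) on log2(RPKM + 0.1) over every gene averaging 0.5 RPKM or more in the libraries compared, and p-values were adjusted by Benjamini-Hochberg over all of them, with calls at an FDR of 0.05. Log2 differences on this scale understate changes of low genes. Comparisons across environments and the interaction used recovered reads of 27321 genes brought to 1 joint scale with trimmed means of M values. Data with 200 changed genes were simulated. In the design of the NX/NG comparison, limma called 90 of 100 genes changed 4-fold and 13 of 100 changed 2-fold. It called 18 unchanged genes there beside 103 changed ones. In the same design limma-voom called 93 of 100 and 53 of 100, with 3 unchanged genes. In that of the Cort-/- environment comparison, limma called 56 of 100 and 0 of 100. The simulation gave every gene the same relative spread and drew changed genes from those averaging at least 1 RPKM. Libraries that stand apart, such as those low in ribosomal RNA or high in epithelial markers, were not simulated. Replicates are pools from 3 mice. Alternatives were another pseudocount, filter and scaling, the replicate number as a block, all libraries in one fit, limma-voom on recovered reads, a term for low ribosomal RNA and leaving out libraries.

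The members and the gene lists were chosen with earlier results of these data known. Values in every library are given for members with an unadjusted p under 0.05 and a mean of at least 1 RPKM, for the norrin and Wnt7 receptor complexes, for feedback targets, for members the study colours in its pathway drawing, and for the highest member of each role; genes of the further lists and markers were named after their values were seen. Promoters came from RefSeq (GRCm38.p6) and matched 38 of the 57 members by symbol, and positions from GENCODE vM21 (GRCm38). Levels between genes were compared per length.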

Additional observations from a re-analysis of the deposited data

How the results depend on the processing

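With 2 or 3 libraries a group, no member was called at an FDR of 0.05 in any of the 5 comparisons under any alternative run but 1: limma-voom on the recovered reads called 1 member (Dkk3) between genotypes under NX/NG. Of the values of the members named with a p under 0.05 in a comparison, each over its alternatives, 0 changed sign. Dkk3 under NX/NG lay between -1.21 and -1.04 (log2) with FDRs between 0.0165 and 0.401 over 13 alternatives, and Fzd7 between -1.29 and -0.66. Dkk3 after OGD-R lay between -0.75 and -0.0067, a range set mainly by which of the 2 Cort-/- libraries was kept. The count of members at an unadjusted p under 0.05 moved more. Leaving out each Cort+/+ library in turn gave 7 to 13 members between genotypes under NX/NG in place of 9. After OGD-R it gave 0 to 3 in place of 1. In Cort+/+ between environments it gave 0 to 3 in place of 1, and in the interaction 1 to 3 in place of 1. In these fits the share of all genes at that level moved too. Between genotypes it lay from 7.52% to 17% under NX/NG in place of 12.5%, and from 2.6% to 4.3% after OGD-R in place of 3.59%. It lay from 4.53% to 9.02% in Cort+/+ between environments in place of 6.63%, and from 1.56% to 3.58% in the interaction in place of 1.88%. Leaving out a Cort-/- library leaves 1 in its group, assumed to vary like the other groups' libraries. The counts of such fits are not read as a result about the members. The Cort+/+ libraries that moved the count of members by over 1.5 times between genotypes after OGD-R were replicates 2 (0 without it) and 3 (3). In Cort+/+ between environments they were NX/NG replicates 1 (2), 2 (0) and 3 (3) and OGD-R replicate 1 (2). In the interaction they were NX/NG replicate 3 (3) and OGD-R replicate 1 (2). The Cort-/- libraries that moved it as much between genotypes were replicate 2 under NX/NG and replicates 1 and 3 after OGD-R. In Cort-/- between environments they were NX/NG replicates 1 and 2 and OGD-R replicate 1, and in the interaction OGD-R replicate 1. Between genotypes after OGD-R the count was 2 with no filter on low values and 4 with a term for low ribosomal RNA. By limma-voom it was 3, all lower, beside 307 lower and 228 higher of 15785 genes. In Cort+/+ between environments it was 0 with plain library totals or with all 10 libraries in one fit, and 2 with the term. Without the libraries low in ribosomal RNA it was 2 there, beside 9.02% of all genes. In the interaction it was 2 with the term. By limma-voom it was 2 there as well, both higher, beside 156 higher and 78 lower of 15712 genes. For the other of these settings the share of all genes was not taken, so those counts are not read as a result about the members. Leaving out both libraries low in ribosomal RNA was chosen after the data were seen. Whether the replicate numbers pair the libraries is not given in the sources used here. Same-numbered Cort+/+ libraries of both environments deviated together with r of -0.0393, -0.0529 and 0.126 across genes. Those of different number gave -0.162 to 0.18, and so few values cannot decide whether pools were shared. With the replicate number as a block, the count was 14 between genotypes under NX/NG, 0 after OGD-R and 0 in the interaction. The share of all genes was not taken for these fits, so the 14 is not read as a result about the members. Between genotypes, 1 replicate number was found only in Cort+/+ (3 under NX/NG, 2 after OGD-R). Few libraries were then left to measure the spread. No block could be fitted in Cort-/- between environments, whose groups share 1 number. The cause of these changes was not tested.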
